A study of Bos taurus with 170 samples.

Results

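Histone-modifying enzymes were followed at the transcript level in bovine embryos on both sides of the main wave of embryonic genome activation. The genes were taken by symbol from the table of unique molecular identifiers (UMI), each UMI standing for 1 captured mRNA molecule. The symbols were those starting with KDM, KMT, SETD, SUV39, SUV420, EHMT, HDAC, KAT and a digit, PRMT or SMYD, together with EZH1, EZH2, EED, SUZ12 and DOT1L. This gave 42 of the 10772 genes in the table. Of these, 29 were counted as writers, which add a methyl or acetyl group, and 13 as erasers, which remove one. Grouping went by family and complex, not by the shown activity of each protein. Writers thus include EED and SUZ12, non-catalytic subunits of a methylating complex, and KMT2E, whose own activity is not established. DOT1L and the SUV420 genes were not analysed here.

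Blastomeres of 6 Day 2 embryos (8-cell stage) and 8 Day 3 embryos (16-cell stage) were sequenced singly by SCRB-Seq, which counts the 3' ends of polyadenylated transcripts. All embryos were cattle embryos (Bos taurus) from oocytes of slaughterhouse ovaries, matured and fertilised in vitro with frozen-thawed sperm and cultured in synthetic oviduct fluid with serum. No embryo was treated and no genotype is named, and the labels give neither dams nor fertilisation runs. The cells with at least 2000 UMI, 43 on Day 2 and 118 on Day 3, were summed per embryo, and the embryo was the replicate.

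Histones carry small chemical groups on their tails that mark chromatin as open or closed. Methylation of histone H3 at lysine 4 (H3K4) marks active promoters, methylation at lysine 9 (H3K9) marks heterochromatin, and methylation at lysine 27 (H3K27) is laid down by Polycomb repressive complex 2 (PRC2), whose core holds EZH1 or EZH2, EED and SUZ12. In cleavage-stage embryos these enzymes are first supplied by the oocyte, as mRNA and protein, and later transcribed by the embryo itself.

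An embryo held 438899 to 920192 UMI on Day 2 and 294912 to 600185 on Day 3, so that 1 UMI was worth 1.42 CPM in the median Day 2 embryo and 2.61 CPM in the median Day 3 embryo, CPM being UMI of a gene per 1000000 UMI on genes. Oocyte markers were present in every embryo (9 of 11 were analysed, all 9 with a UMI throughout) and summed to 7794 to 8931 CPM on Day 2 and 2477 to 9331 CPM on Day 3. Of 12 cumulus markers, CYP19A1, FSHR and LUM were not analysed here and the other 9, mainly STAR and HAS2, summed to 493.7 to 606.9 CPM on Day 2 and 190.5 to 548.2 CPM on Day 3. Of 6 sperm markers 2 were analysed, with at most 7.72 CPM together. The part of these levels in the differences between the days was not tested. Day 3 embryos E1 to E4 came from plate 1, which held no Day 2 embryo. Plate 2 held Day 2 embryos E5 and E6 with Day 3 embryos E7 and E8, and plate 3 held Day 2 embryos E1 to E4 with Day 3 embryos E5 and E6. By the collection times in the paper, the Day 3 embryos of plate 1 were collected earliest after fertilisation, those of plate 3 later and those of plate 2 latest. Plate and collection time therefore cannot be told apart among the Day 3 embryos. All Day 2 embryos and only Day3-E1 and Day3-E2 are certain to belong to the first set of cell barcodes, so that day and barcode set cannot be told apart in full.

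The summed levels of writers and of erasers differed between the days by less than 1 SD of the embryos, while single members moved. In plate 3 alone both sums were lower on Day 3, with a Day 3 minus Day 2 difference of -325 CPM for writers and -49.3 CPM for erasers. Writers summed to 2545 ± 223 CPM on Day 2 (SD, n = 6) and 2657 ± 296 CPM on Day 3 (SD, n = 8). Erasers summed to 774 ± 54.7 CPM and 827 ± 117 CPM. The ratio of writers to erasers was 3.29 ± 0.153 on Day 2 and 3.23 ± 0.248 on Day 3, and its ranges overlapped. A level in CPM is a share of an embryo's transcripts, and a change of all transcripts together would not be seen in it.

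Of the 42 genes, 29 had enough UMI to be tested (20 writers and 9 erasers) and 13 did not. By edgeR's quasi-likelihood test on UMI per embryo, 7 of the 29 passed an adjusted p of 0.05 (Benjamini-Hochberg over all genes tested), and all 7 rose on Day 3. They were 6 writers, all of them lysine methyltransferases or PRC2 subunits, and 1 eraser. These are 24.1% of the members tested, against 32.5% of all 5274 genes tested, of which 1117 (21.2%) were higher and 595 lower on Day 3. The share of called members was thus not above the share of called genes at large. No tested member separated the days completely, against 9.37% of all genes tested. The median log2 fold change was 0.30 over the 29 members (0.22 over the writers and 0.42 over the erasers) and -0.037 over all genes.

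Fold changes are given after TMM scaling, which sets the bulk of genes equal between embryos, so they can differ from the ratio of the CPM printed beside them. SE is the standard error. Without TMM scaling the median over all genes was -0.27, with 35.5% of genes called, 890 higher and 981 lower, and the members' median was 0.034. The members called were then 4 higher (EED, SUZ12, KMT5A and SETD1A) and 1 lower (EHMT2). EZH2, KAT7, PRMT1, HDAC7, SMYD5, KAT8 and PRMT3, none of them called, were above 0 with TMM scaling and below 0 without it.

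**Figure D1:**
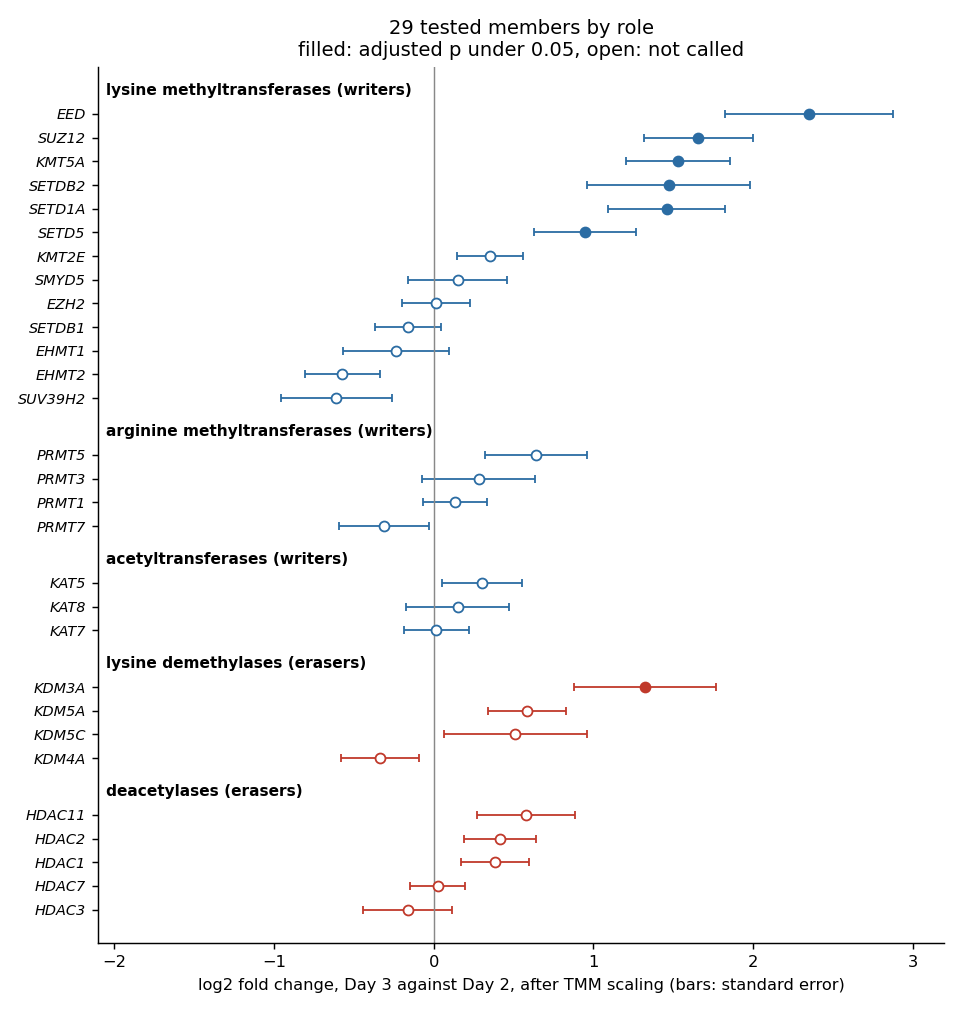
Log2 fold change between Day 3 and Day 2 embryos (x axis, after TMM scaling) of the 29 tested members, grouped by role (blue writers, red erasers), with bars of 1 standard error. The 7 filled points passed the test, EED being the highest at 2.35, and the remaining 22 open points lie between -0.61 and 0.64.

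The core of PRC2 held the 2 highest fold changes of the 29 genes, those of EED and SUZ12, whereas its catalytic subunit EZH2 was not called. EED, the subunit that binds methylated H3K27, ranged from 16.74 to 41.0 CPM (median 33.6) over the Day 2 embryos and from 31.2 to 236 CPM (median 102) over the Day 3 embryos. Day3-E4 and Day3-E8 were highest with 236 and 232 CPM, while Day3-E1 (33.3 CPM) and Day3-E5 (31.2 CPM) lay inside the Day 2 range. The other 6 Day 3 embryos lay above every Day 2 embryo. The mean went from 30.5 ± 9.41 CPM (SD, n = 6) to 121 ± 82.9 CPM (SD, n = 8), a log2 fold change of 2.35 (SE 0.53, adjusted p = 0.0033). Within plates, EED's log2 fold change was 2.85 in plate 2 (adjusted p = 0.0040) and 1.37 in plate 3 (adjusted p = 0.036).

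SUZ12, the scaffold of the complex, ranged from 72.9 to 98.3 CPM (median 87.9) on Day 2 and from 85.8 to 359 CPM (median 219) on Day 3. It showed the same split, with Day3-E1 and Day3-E5 inside the Day 2 range and the other 6 Day 3 embryos above it. Its mean went from 85.8 ± 11.08 CPM to 215 ± 91.8 CPM and its log2 fold change was 1.66 (SE 0.34, adjusted p = 0.0018). Within plates that of SUZ12 was 2.04 in plate 2 (adjusted p = 0.0077) and 0.91 in plate 3 (adjusted p = 0.046). In the first barcode set alone, which leaves 2 Day 3 embryos, EED stood at 1.38 (adjusted p = 0.11) and SUZ12 at 1.27 (adjusted p = 0.0503).

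EZH2, the catalytic subunit, was already among the most abundant members on Day 2. It ranged from 257 to 432 CPM (median 411) on Day 2 and from 252 to 505 CPM (median 310.1) on Day 3. The ranges overlapped, with Day2-E6 low among the Day 2 embryos and Day3-E2 highest of all. Its log2 fold change was 0.015 (SE 0.21, adjusted p = 0.96), and -0.27 (adjusted p = 0.27) without TMM scaling. EZH1, the alternative catalytic subunit, was under the count filter, with 2.137 to 21.3 CPM (median 11.62) on Day 2 and 0 to 18.3 CPM (median 8.99) on Day 3 and 0 UMI in Day3-E8.

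Set against EZH2 in the same embryo, the other core subunits were scarce on Day 2 and closer to it on Day 3. These ratios do not depend on scaling, and they are given as a description because their members were known to move. EED stood at 0.0820 ± 0.0336 UMI per UMI of EZH2 on Day 2 and 0.384 ± 0.269 on Day 3. SUZ12 stood at 0.224 ± 0.0358 and 0.685 ± 0.308. In every Day 3 embryo SUZ12 per EZH2 was above the highest Day 2 embryo (0.283), although Day3-E1 exceeded it only narrowly (0.291). EED per EZH2 overlapped, since Day3-E1 (0.101) and Day3-E5 (0.124) fell below Day2-E6 (0.133).

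**Figure D2:**
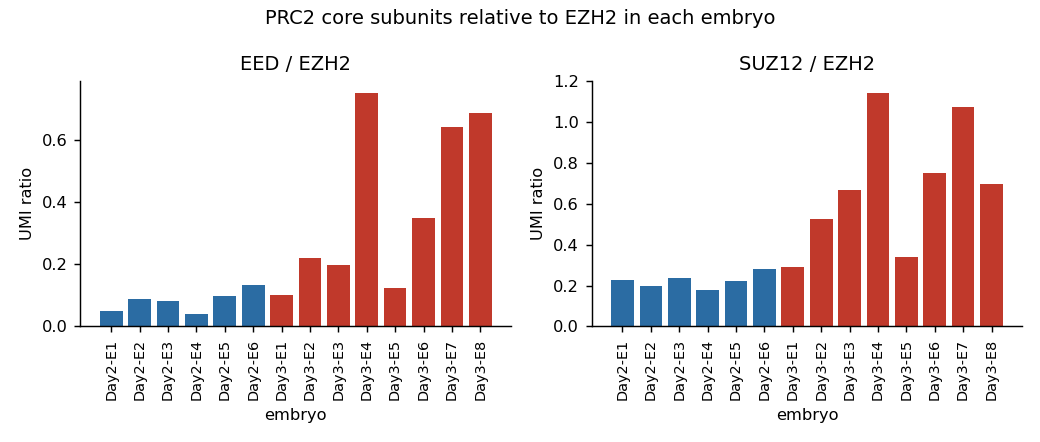
UMI of EED (left) and SUZ12 (right) per UMI of EZH2 (y axes) in each of the 6 Day 2 (blue) and 8 Day 3 (red) embryos. EED per EZH2 reached 0.752 and SUZ12 per EZH2 1.14 in Day3-E4, against at most 0.133 and 0.283 on Day 2.

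Among partners that bind or tune PRC2, 5 of the 7 listed genes were analysed and 4 were tested. For these and the other listed partner and enzyme genes below, only the fit with all embryos and TMM scaling is given. The alternative settings are reported for the members alone, so how far the calls of listed genes hold in them is not shown. Of the 4 PRC2 partners tested, 2 were called (50%, against 32.5% of all genes tested). AEBP2, an accessory subunit, and RBBP4, the histone-binding subunit of the core, rose. AEBP2 went from 36.8 ± 6.169 to 58.2 ± 22.8 CPM with a log2 fold change of 0.96 (SE 0.33, adjusted p = 0.034), and RBBP4 from 300.2 ± 40.4 to 446 ± 216 CPM with one of 0.94 (SE 0.34, adjusted p = 0.045). PRC1, the second Polycomb complex, had 11 genes tested and 1 called (9.09%, against 32.5% of all genes tested). This was PCGF1, a subunit of variant PRC1, which fell (log2 fold change -0.69, SE 0.25, adjusted p = 0.044).

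KMT5A, which monomethylates histone H4 at lysine 20 (H4K20), was the only member grouped here as a writer of that mark. It ranged from 65.5 to 92.1 CPM (median 80.1) on Day 2 and from 91.6 to 329 CPM (median 168) on Day 3. Only Day3-E1 (91.6 CPM) lay inside the Day 2 range, just under its highest embryo, and Day3-E2 was highest. KMT5A rose with a log2 fold change of 1.53 (SE 0.32, adjusted p = 0.0022). Within plates it was 1.76 in plate 2 (adjusted p = 0.024) and 1.25 in plate 3 (adjusted p = 0.0044), and KMT5A was called in each of the 25 alternative settings tried.

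Of the members, SETD1A and KMT2E were grouped here as H3K4 writers. SETD1A, the catalytic subunit of a COMPASS complex, ranged from 23.9 to 49.2 CPM (median 35.01) on Day 2 and from 26.7 to 118 CPM (median 75.6) on Day 3. All Day 3 embryos but Day3-E1 were above the Day 2 range. SETD1A rose with a log2 fold change of 1.46 (SE 0.37, adjusted p = 0.0068), which was 1.86 in plate 2 (adjusted p = 0.034) and 1.14 in plate 3 (adjusted p = 0.033). The call of SETD1A was lost in the first barcode set alone (1.08 (adjusted p = 0.24)) and with embryo number as a replicate block (1.15 (adjusted p = 0.079)), although the numbers do not pair the embryos. The fit with the block also left out Day3-E7 and Day3-E8, the latter being the highest embryo for SETD1A. KMT2E, which belongs to the MLL family by sequence but whose own methyltransferase activity is not established, had the highest mean level of the 42 genes (356 CPM over all embryos). It ranged from 253 to 409 CPM (median 364) on Day 2 and from 281 to 511 CPM (median 338) on Day 3, overlapping widely, with a log2 fold change of 0.35 (SE 0.21, adjusted p = 0.20). Of 8 COMPASS partners tested, 1 was called (12.5%, against 32.5% of all genes tested). CXXC1, which guides the complex to unmethylated CpG, fell from 52.0 ± 14.51 to 23.6 ± 14.54 CPM (log2 fold change -0.91, SE 0.30, adjusted p = 0.031).

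**Figure D3:**
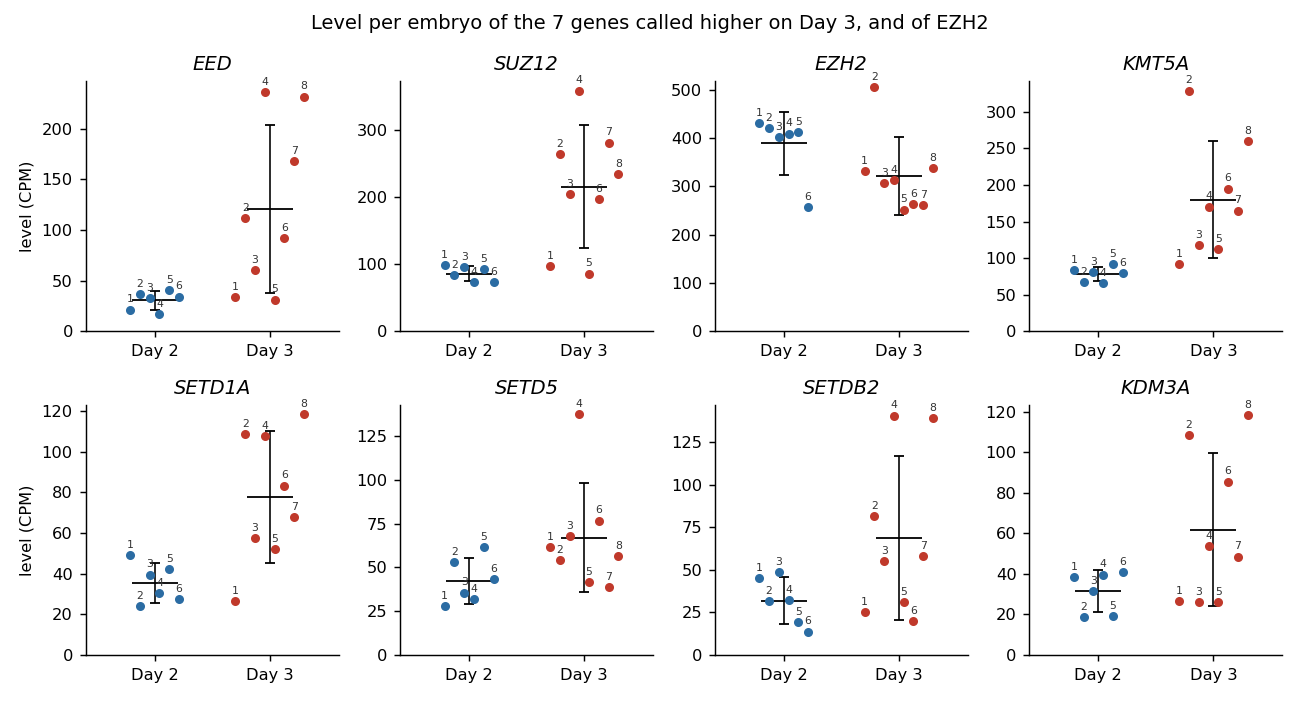
Level in CPM (y axes, from 0) of the 7 members that passed the test and of EZH2 in each embryo; points are embryos with their number, bars the mean and SD over 6 Day 2 (blue) and 8 Day 3 (red) embryos. Day3-E1 lies at Day 2 levels for 6 of the 7 called genes, and the levels of EZH2 overlap between the days.

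The 5 H3K9 writers had fold changes of both signs, 1 above and 4 below 0, and only SETDB2, the one above 0, was called. SETDB2, a SET-domain H3K9 methyltransferase, ranged from 13.67 to 48.8 CPM (median 31.7) on Day 2 and from 19.7 to 140.5 CPM (median 56.6) on Day 3. Day3-E4 (140.5 CPM) and Day3-E8 (139 CPM) were far above the others, and Day3-E1, Day3-E5 and Day3-E6 lay inside the Day 2 range. The log2 fold change of SETDB2 was 1.47 (SE 0.51, adjusted p = 0.036). It was 3.03 in plate 2 (adjusted p = 0.011) and -0.46 in plate 3 (adjusted p = 0.45), so the direction was not the same in the plates that held both days. Those plates also differed in the collection time of their Day 3 embryos. The call was lost when any of Day2-E2, Day2-E4, Day2-E5, Day2-E6, Day3-E2, Day3-E4, Day3-E7 or Day3-E8 was left out, with an adjusted p of up to 0.085 without Day3-E8.

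SETDB1, which trimethylates H3K9 and silences retroelements, was far more abundant. It ranged from 271 to 360.2 CPM (median 327) on Day 2 and from 95.2 to 361 CPM (median 244) on Day 3, with a log2 fold change of -0.16 (SE 0.21, adjusted p = 0.57). Day3-E1 and Day3-E5 were inside the Day 2 range and Day3-E3 level with its upper end, and the other 5 Day 3 embryos lay below the Day 2 range, the lowest being Day3-E8 (95.2 CPM).

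The 3 remaining H3K9 writers were named after their values were seen. SUV39H2, the enzyme of constitutive heterochromatin, had a narrow range on Day 2, 128 to 169.5 CPM (median 156). On Day 3 it spread from 10.297 to 199.9 CPM (median 69.5). Day3-E1 was the highest embryo of all and Day3-E8 the lowest, and 6 of the 8 Day 3 embryos fell below every Day 2 embryo. Its log2 fold change of -0.61 (SE 0.35, adjusted p = 0.18) did not pass the test, but did without Day3-E1, and was -0.73 (adjusted p = 0.049) in plate 3 alone. EHMT2, which mono- and dimethylates H3K9, ranged from 43.3 to 79.1 CPM (median 54.5) and from 18.0 to 59.8 CPM (median 28.8), with 6 Day 3 embryos below the Day 2 range. Its log2 fold change was -0.57 (SE 0.24, adjusted p = 0.072), and -0.80 (adjusted p = 0.032) without TMM scaling, and it passed the test as lower without Day3-E5. EHMT1, its partner, ranged from 53.3 to 105 CPM (median 81.5) and from 5.98 to 102 CPM (median 62.9), lowest in Day3-E4, with a log2 fold change of -0.23 (SE 0.33, adjusted p = 0.61).

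Summed by mark, H3K9 writers stood at 643 ± 80.7 CPM on Day 2 and 496 ± 166 CPM on Day 3, and H3K27 writers at 518 ± 72.1 and 667 ± 197 CPM. On Day 2 the first sum was the larger in all 6 embryos. On Day 3 it was the larger in Day3-E1, Day3-E3 and Day3-E5, and the smaller in the other 5. H3K4 writers summed to 384 ± 61.7 and 440.1 ± 90.3 CPM. These sums are descriptions, without a test, and abundant members weigh most in them. KMT2E, of unestablished activity, made up 348 ± 57.5 CPM of the H3K4 sum on Day 2 and 362 ± 81.0 CPM on Day 3. The H3K27 sum includes EED and SUZ12, which are not catalytic and which rose. Its main catalytic member, EZH2, stood at 389 ± 65.4 CPM on Day 2 and 321 ± 81.2 CPM on Day 3. The order of the H3K9 and H3K27 sums on Day 3 thus rests in part on EED and SUZ12. Against EZH2 alone, the H3K9 sum was the larger in Day3-E4 (338 against 314 CPM), Day3-E6 (394 against 263 CPM) and Day3-E7 (391 against 262 CPM). In Day3-E2 both stood at 505 CPM, and in Day3-E8 EZH2 was the higher (337 against 296 CPM).

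**Figure D4:**
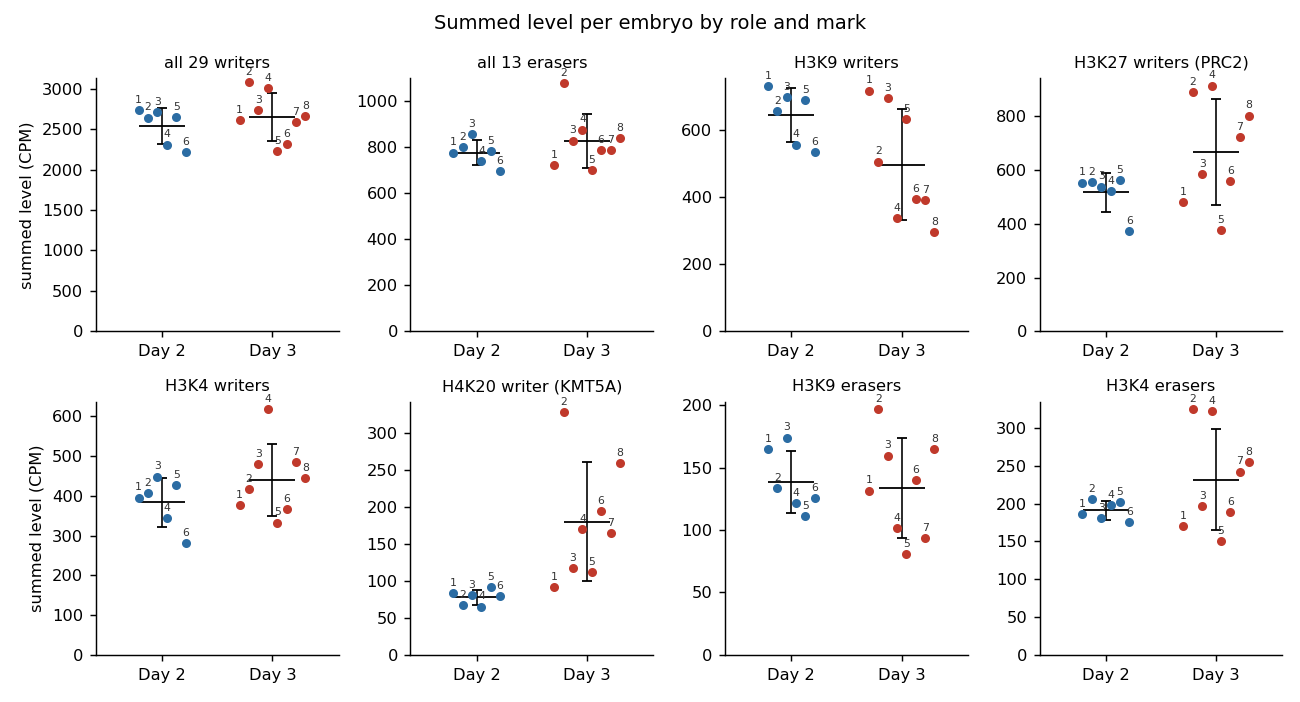
Summed level in CPM (y axes, from 0) per embryo of all writers, all erasers and the members grouped by the mark they write or erase; points are embryos with their number, bars the mean and SD over 6 Day 2 (blue) and 8 Day 3 (red) embryos. The sums of all writers and of all erasers overlap between the days, while on Day 3 the H3K9 writers reach down to 296 CPM in Day3-E8 and the H3K27 writers up to 915 CPM in Day3-E4. The H3K27 sum includes the non-catalytic EED and SUZ12.

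Of the remaining lysine methyltransferases only SETD5 and SMYD5 were tested. SETD5, a SET-domain protein, ranged from 27.8 to 61.4 CPM (median 39.5) on Day 2 and from 38.8 to 137 CPM (median 59.1) on Day 3. Day3-E4 (137 CPM) stood well above the rest, and 4 of 8 Day 3 embryos were inside the Day 2 range. SETD5 was called with a log2 fold change of 0.95 (SE 0.32, adjusted p = 0.032), which was 0.31 in plate 2 (adjusted p = 0.69) and 0.84 in plate 3 (adjusted p = 0.12). It lost the call in 14 of 24 alternative settings, among them those without Day2-E1 (adjusted p = 0.082), Day2-E3, Day2-E4, Day2-E6, Day3-E4, Day3-E6 or Day3-E8. SMYD5 had 31.6 ± 12.1 CPM on Day 2 and 29.7 ± 9.50 CPM on Day 3 and was not called (adjusted p = 0.74). SETD4, SETD6, SMYD2, SMYD3 and SMYD4 were under the filter, with means over all embryos of 2.22 to 18.4 CPM.

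Arginine methyltransferases were 7 of the writers, of which 4 were tested and 0 called, against 32.5% of all genes tested. PRMT1, the main enzyme of asymmetric dimethylation, was the most abundant, with 128 to 169.5 CPM (median 144) on Day 2 and 102 to 173 CPM (median 128) on Day 3. Its log2 fold change was 0.13 (SE 0.20, adjusted p = 0.63). PRMT5, which dimethylates arginine symmetrically, ranged from 75.0 to 135 CPM (median 91.7) and from 72.8 to 251 CPM (median 101). The Day 3 maximum was a single embryo, Day3-E4, and 5 of 8 lay inside the Day 2 range, with a log2 fold change of 0.64 (SE 0.32, adjusted p = 0.13). PRMT3 went from 35.4 ± 9.45 to 34.4 ± 17.4 CPM (log2 fold change 0.28, SE 0.36, adjusted p = 0.56) and PRMT7 from 30.2 ± 8.20 to 19.7 ± 8.24 CPM (log2 fold change -0.31, SE 0.28, adjusted p = 0.41). PRMT2, PRMT6 and PRMT9 were not tested, with means over all embryos of 7.78 to 17.9 CPM.

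All 3 acetyltransferases of the set were tested and 0 were called, against 32.5% of all genes tested. KAT7, the catalytic subunit of the HBO1 complexes, was the most abundant, with 299.9 to 395 CPM (median 377) on Day 2 and 143 to 407 CPM (median 320.4) on Day 3. Day3-E4 held the lowest level, and the log2 fold change was 0.018 (SE 0.20, adjusted p = 0.95). KAT5, which acetylates histones H4 and H2A in the TIP60 complex, had 24.4 to 54.3 CPM (median 44.1) and 28.8 to 59.8 CPM (median 41.2) with overlapping days (log2 fold change 0.30, SE 0.25, adjusted p = 0.36). KAT8, the enzyme of H4 lysine 16, stood at 39.5 ± 15.32 and 35.7 ± 13.01 CPM (log2 fold change 0.15, SE 0.32, adjusted p = 0.75).

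Of 27 tested partners of acetyltransferases, 6 were called, 4 higher (with YEATS4) and 2 lower (TADA1 and TADA2A of the SAGA and ATAC complexes). The 6 are 22.2%, against 32.5% of all genes tested. ING1 and ING2, readers of methylated H3K4 known from deacetylase as well as acetyltransferase complexes, rose. ING1 went from 11.0 ± 3.53 to 86.0 ± 53.2 CPM (log2 fold change 3.23, SE 0.51, adjusted p = 0.00028). ING2 went from 11.73 ± 6.03 to 61.0 ± 34.9 CPM (log2 fold change 2.697, SE 0.46, adjusted p = 0.00048), and KANSL2, a subunit of a KAT8 complex, from 67.8 ± 13.04 to 194 ± 137 CPM (log2 fold change 1.92, SE 0.51, adjusted p = 0.0098). TADA2A fell from 753 ± 41.4 to 364 ± 184 CPM (log2 fold change -0.86, SE 0.24, adjusted p = 0.014), with every Day 3 embryo below every Day 2 embryo, and is named here after its values were seen.

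Of the 6 lysine demethylases, 4 were tested and KDM3A was called (25%, against 32.5% of all genes tested). KDM3A, which removes mono- and dimethylation from H3K9, ranged from 18.5 to 41.0 CPM (median 35.1) on Day 2 and from 25.99 to 118 CPM (median 51.1) on Day 3. Day3-E8 and Day3-E2 were highest, 5 of 8 Day 3 embryos lay above the Day 2 range and Day3-E1, Day3-E3 and Day3-E5 lay inside it. KDM3A rose with a log2 fold change of 1.32 (SE 0.44, adjusted p = 0.031), which was 2.01 in plate 2 (adjusted p = 0.053) and 1.05 in plate 3 (adjusted p = 0.11). It kept its direction and lost its call in 12 of 24 alternative settings, among them the fit without TMM scaling and those without Day2-E2, Day2-E3, Day2-E5 (adjusted p = 0.076), Day3-E2, Day3-E6 or Day3-E8.

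KDM4A, which acts on trimethylated H3K9 and H3K36, ranged from 82.2 to 142 CPM (median 104) and from 45.3 to 134 CPM (median 54.7). It was not called (log2 fold change -0.33, SE 0.24, adjusted p = 0.30), although 5 of 8 Day 3 embryos lay below the Day 2 range. With plate as a term of the fit it was -0.75 (adjusted p = 0.045) and in plate 3 alone -0.91 (adjusted p = 0.037). KDM5A, which removes H3K4 methylation, was the most abundant eraser. It ranged from 156 to 196 CPM (median 175) and from 148 to 305 CPM (median 192), with Day3-E4 and Day3-E2 highest, and its log2 fold change of 0.58 (SE 0.25, adjusted p = 0.076) did not pass, but did without Day3-E1 or Day3-E5. KDM5C was not called either (adjusted p = 0.39). KDM6A, which removes H3K27 methylation, had too few UMI to test, with at most 6.84 CPM on Day 2 and 15.45 CPM on Day 3. KDM8 was likewise not tested, with 14 UMI over all Day 2 and 6 UMI over all Day 3 embryos.

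Deacetylases were 7 of the erasers, with 5 tested and 0 called, against 32.5% of all genes tested. HDAC7, a class IIa enzyme, had 128 to 196 CPM (median 146) on Day 2 and 85.0 to 188 CPM (median 136) on Day 3 (log2 fold change 0.025, SE 0.17, adjusted p = 0.93). HDAC1 and HDAC2, the class I pair shared by the SIN3, NuRD and CoREST complexes, held close levels. HDAC1 stood at 101 ± 9.69 and 108 ± 20.6 CPM (log2 fold change 0.38, SE 0.21, adjusted p = 0.17). HDAC2 stood at 111 ± 15.7 and 121 ± 30.6 CPM (log2 fold change 0.42, SE 0.22, adjusted p = 0.16). Their spread over embryos was among the smallest of the set, with coefficients of variation on Day 3 of 19.1% and 25.2%, against 68.7% for EED and 71.4% for SUV39H2.

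HDAC11, the class IV enzyme, went from 27.4 ± 6.22 to 35.01 ± 20.2 CPM (log2 fold change 0.58, SE 0.31, adjusted p = 0.15). HDAC3 was not called (adjusted p = 0.68). HDAC5 and HDAC6 were under the filter. HDAC5, a class IIa enzyme picked out here after its values were seen, had 0 to 5.12 CPM (median 3.118) on Day 2 and 3.33 to 40.7 CPM (median 20.4) on Day 3, with 7 of 8 Day 3 embryos above the Day 2 range and Day3-E1 inside it. In a fit without the filter, in which 20.3% of all 10772 genes were called, HDAC5 rose with a log2 fold change of 2.65 (SE 0.60, adjusted p = 0.0026 by edgeR), from 13 UMI over all Day 2 embryos to 53 over all Day 3 embryos. That fit called 7 of the 42 members, HDAC5 in and SETD5 out.

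Among 11 tested genes of the deacetylase corepressor complexes, 4 were higher (with MBD3) and 1 lower. The share called was 45.5%, against 32.5% of all genes tested. SAP18, a SIN3-associated protein, rose from 365 ± 20.3 to 1587 ± 643 CPM (log2 fold change 2.48, SE 0.34, adjusted p = 0.00011), with every Day 3 embryo above every Day 2 embryo. MTA2, a NuRD subunit, rose from 6.66 ± 4.88 to 51.0 ± 44.4 CPM (log2 fold change 3.28, SE 0.74, adjusted p = 0.0034) and SAP30 from 39.7 ± 13.35 to 67.0 ± 37.0 CPM (log2 fold change 1.08, SE 0.36, adjusted p = 0.032). NCOR1, the one that fell, went from 1452 ± 100.04 to 875 ± 354 CPM (log2 fold change -0.51, SE 0.19, adjusted p = 0.044), and was named after its values were seen.

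Of histone-modifying enzymes whose symbols the rule does not cover, 12 were tested, 4 were higher (with ASH1L) and 1 lower (JMJD1C). The share called was 41.7%, against 32.5% of all genes tested. JMJD6, a JmjC-domain hydroxylase, rose from 7.32 ± 2.96 to 65.4 ± 46.5 CPM (log2 fold change 3.43, SE 0.53, adjusted p = 0.00028), again without overlap between the days. SIRT1, an NAD-dependent deacetylase, rose from 50.7 ± 9.04 to 231 ± 156 CPM (log2 fold change 2.57, SE 0.55, adjusted p = 0.0024). HAT1, which acetylates newly made histone H4, rose from 55.0 ± 21.2 to 129 ± 91.5 CPM (log2 fold change 1.63, SE 0.49, adjusted p = 0.018). Over all 6 partner and enzyme lists, 20 of 73 tested genes were called (27.4%, against 32.5% of all genes tested), 14 higher and 6 lower, with a median log2 fold change of 0.084. Of the 73, 3 did not overlap between the days (SAP18, JMJD6 and TADA2A), against 9.37% of all genes tested.

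Paralogous or partnered members were compared within embryos as log2 ratios of their UMI, which are free of scaling. Of 24 pairs listed, 7 had both members tested, and 0 passed an exact two-sided permutation test over embryos after adjustment over the 7. The ratio of SETDB1 to SETDB2 had the smallest p. Its mean went from 3.41 ± 0.61 to 2.01 ± 1.63 (exact permutation test, p = 0.073, adjusted p = 0.39), being lowest in Day3-E8 and Day3-E4, where SETDB2 had more UMI than SETDB1. The ratio of EED to SUZ12 differed by 0.48 (exact permutation p = 0.13, adjusted p = 0.39) and that of HDAC1 to HDAC2 by -0.031 (exact permutation p = 0.80, adjusted p = 0.90). The other 4 pairs (HDAC1 and HDAC3, KAT5 and KAT8, EHMT1 and EHMT2, PRMT1 and PRMT5) had unadjusted exact permutation p-values of 0.17 to 0.90.

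The coefficient of variation over embryos was larger on Day 3 than on Day 2 for 27 of the 29 tested members, with a median of 41.9% against 22.1%, at fewer UMI per embryo on Day 3. The same count was not made over all genes tested, so the larger spread is not shown to be particular to these members. Day3-E1 had 24 of the 29 tested members inside the Day 2 range (82.8%), 6 of the 7 called genes among them, and Day3-E5 had 15, with 5 of the called genes. Day3-E4 had only 6 inside the range, with 13 above and 10 below it, and all 7 called genes above. Day3-E8 had 9 inside, with 10 above and 10 below. Over all 5274 genes tested, 62.0% were inside the Day 2 range in Day3-E1, the most of any Day 3 embryo, and 16.44% in Day3-E4 and 12.9% in Day3-E8, the fewest. In Day3-E2, Day3-E3, Day3-E5, Day3-E6 and Day3-E7 it was 26.2%, 47.2%, 41.0%, 29.7% and 23.6%. The oocyte markers summed to 9021 CPM in Day3-E1, 4829.8 CPM in Day3-E4 and 2477 CPM in Day3-E8. In Day3-E2, Day3-E3, Day3-E5, Day3-E6 and Day3-E7 they summed to 4985, 8206, 9331, 7736 and 7381 CPM. The 2 orders thus differ, Day3-E6 and Day3-E7 having high marker sums and few genes inside the Day 2 range. The part of the markers in these differences was not tested. The high levels of EED, SUZ12 and SETDB2 in Day3-E4 and Day3-E8 stood beside low levels of SUV39H2, SETDB1 and EHMT1 in the same embryos. These genes were picked after their values were seen, and SETDB2 is itself an H3K9 writer. SUZ12 was higher in Day3-E7 (281 CPM) and Day3-E2 (264 CPM) than in Day3-E8 (234 CPM). EHMT1 was lower in Day3-E7 (25.9 CPM) than in Day3-E8 (33.5 CPM). Without Day3-E1, edgeR called 9 members (and 41.7% of all genes), adding KDM5A as higher and SUV39H2 as lower. Without Day3-E8 it called 4 (and 28.5% of all genes).

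**Figure D5:**
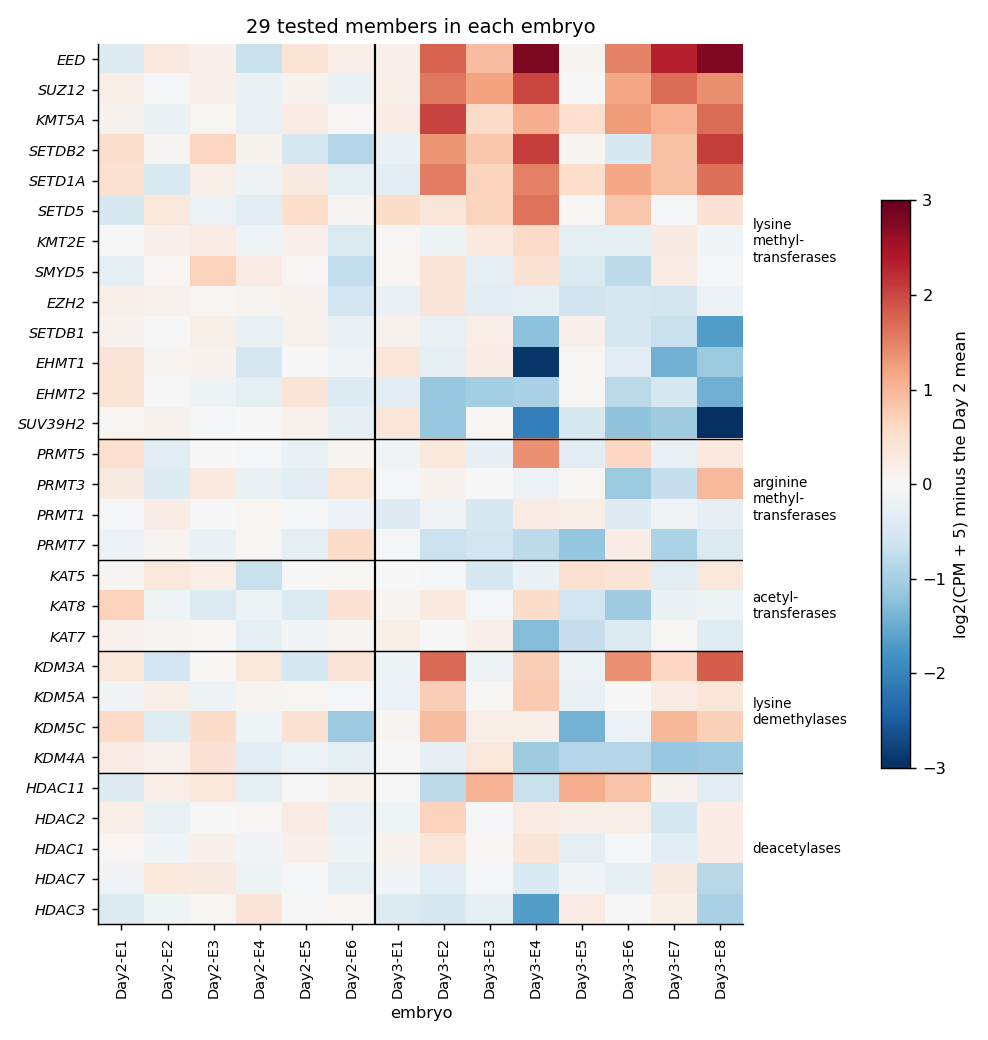
Level of the 29 tested members (rows, by role) in the 6 Day 2 and 8 Day 3 embryos (columns) as log2(CPM + 5) minus the Day 2 mean, red above and blue below it, with colours that saturate at a difference of 3 in either direction. Day3-E1 is mostly pale, whereas Day3-E4 and Day3-E8 are red for EED, SUZ12 and SETDB2 and blue for SUV39H2, SETDB1 and EHMT1, genes picked after their values were seen.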

How the data were processed

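Single blastomeres of 6 Day 2 and 8 Day 3 in vitro produced bovine embryos were sequenced by SCRB-Seq. The authors mapped reads with STAR version 2.5.2b, assigned them to genes with the Drop-seq pipeline and deposited raw UMI counts, 1 whole-number count per gene and cell. How reads shared by near-identical gene copies were assigned is not given in the sources used here. The deposited table of normalised values was not used here. Of 170 cells, 9 did not reach 2000 UMI and were dropped, ERCC spike-ins (1.78% of UMI) were removed, and the counts of the other 161 cells were summed per embryo. Of 93 cell barcodes, 77 were used by 2 cells.

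Days were compared with edgeR 4.0.16 (R 4.3.3): filterByExpr by day, TMM scaling, quasi-likelihood test, Benjamini-Hochberg adjustment over 5274 genes, threshold 0.05; all adjusted p-values come from this fit unless another test is named. Standard errors were derived from the F statistic. Log2 ratios of paralogous or partnered members used a pseudocount of 0.5 UMI and exact permutation tests (Python 3.11.15). The ratios to EZH2 and of writers to erasers had neither a pseudocount nor a test. The procedure was tested on simulated data. Alternatives were DESeq2 1.42.0, its size factors, no scaling, no filter, at least 10000 UMI per cell, thinning to 10000 UMI, plate terms and subsets, barcode set, a replicate block and leaving out each embryo. The members and gene lists were chosen with earlier results of these data known. Genes described singly were all members past the threshold, the PRC2 core, and in each role the 3 most abundant and the 2 with the largest absolute fold change. From each list of partners, up to 3 called genes with the smallest p were named. Counts limit precision: 1 UMI is 1.42 CPM (Day 2) or 2.61 CPM (Day 3) in the median embryo.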

Additional observations from a re-analysis of the deposited data

Results flagged for a closer look

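Among 76 sets of values (tested members and sums, in each day), 6 held an embryo that stood apart from the others of its day by Dixon's criterion, and chance alone gives about 1 in 20. EZH2 gave 2 of them. Day2-E6 was low with 257 CPM, against 402 CPM in the next Day 2 embryo, and Day3-E2 was high with 505 CPM, against 337 CPM. SETD5 in Day3-E4 reached 137 CPM, the next Day 3 embryo having 76.7 CPM. PRMT5 in Day3-E4 reached 251 CPM, the next having 147 CPM. PRMT3 in Day3-E8 reached 72.1 CPM, the next having 37.3 CPM. The summed level of the erasers in Day3-E2 was 1078 CPM, the next being 876 CPM. Day3-E2 had the fewest UMI of all embryos (294912) and Day2-E6 the fewest of the Day 2 embryos (438899). The part of depth in these values was not tested.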

How the results depend on the processing

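EED, SUZ12, KMT5A and SETD1A were called in all 14 fits that left out 1 embryo, SETDB2 in 6, SETD5 in 7 and KDM3A in 8. Over these fits 4 to 9 members were called, 4 to 8 higher and 0 to 1 lower, with 4 without Day3-E8 and 9 without Day3-E1 or Day3-E5. Of all genes, 25.5% to 41.7% were called over the same fits. The share was 28.5% without Day3-E8, 41.7% without Day3-E1 and 35.7% without Day3-E5. Without scaling, and likewise with plate as a term, 4 members were higher and 1 was lower, KDM3A, SETD5 and SETDB2 being lost (of all genes, 35.5% and 30.7% were called). Thinned cells left 13 members testable and 2 were called, both higher (27.5% of all genes). In plate 2 alone 5 of 28 were called (28.9% of all genes). In plate 3 alone (24.7% of all genes), 5 were higher and 2 lower (KDM4A and SUV39H2), and SETDB2 reversed to -0.46 (adjusted p = 0.45). In the first barcode set alone, with 2 Day 3 embryos, 1 was called, KMT5A, as higher (5.67% of all genes). DESeq2 called 8, KDM5A being added (42.0% of all genes). With its size factors, with deeper cells and without the filter 7 were called (32.4%, 32.6% and 20.3% of all genes). In the fit with a replicate block, the shared embryo number, 3 of 28 tested members were called, all higher (EED, SUZ12 and KMT5A), and 702 of 5110 genes in all were called. That fit also left out Day3-E7 and Day3-E8, whose numbers no Day 2 embryo has, so block and embryos left out cannot be told apart. Same-numbered embryos of the 2 days did not deviate together (correlations -0.132 to 0.0261), and the labels tie the numbers to no shared source.

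Of the ratios within embryos, plate 3 alone gave -0.37 for HDAC1 to HDAC2, -0.36 for HDAC1 to HDAC3, 1.41 for KAT5 to KAT8 and 0.39 for SETDB1 to SETDB2, and plate 2 alone -3.58 for SETDB1 to SETDB2. These subsets cannot reach a p under 0.0667 and 0.333. The cause of these differences between settings was not tested. The summed levels of writers and erasers moved by less than the spread between embryos with deeper cells, thinned cells or 1 embryo left out. Over plates and barcode sets, chosen after seeing the data, they did so in plate 2 alone and in the first barcode set alone, whereas in plate 3 alone the Day 3 minus Day 2 difference was -325 CPM for writers and -49.3 CPM for erasers. Of the single-gene comparisons with the values given, 583 kept direction and side of the threshold, 68 changed sign without a call in either fit, 42 lost a call, 10 gained one and 1 reversed. Depth limits the 13 untested members most.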

Other observations

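Shares of cells with a UMI follow depth, which was higher on Day 2 (median 76074 UMI per cell) than on Day 3 (24696). With each cell thinned to 10000 UMI, EED was found in 26.9% ± 22.0 of the cells of a Day 2 embryo (SD over 6 embryos) and in 57.0% ± 32.3 of those of a Day 3 embryo (SD over 8 embryos). Unthinned, the shares were 80.4% ± 18.9 and 73.9% ± 18.7. For KMT5A the thinned shares were 50.04% ± 25.1 and 79.6% ± 17.8, and the unthinned ones 86.3% ± 12.9 and 87.7% ± 8.22. SUV39H2 had thinned shares of 78.7% ± 12.7 and 52.9% ± 28.0, and unthinned ones of 89.98% ± 7.92 and 66.7% ± 28.3. EZH2 had a UMI in 94.4% ± 6.42 of thinned Day 3 cells and in all 37 thinned Day 2 cells, and unthinned shares of 97.6% ± 5.83 and 91.9% ± 8.49. Thinning left out 6 Day 2 and 15 Day 3 cells with fewer UMI. No cell type that lacks these genes was sequenced, so the share that free RNA would give is unknown.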
